A study of Mus musculus with 10 samples.

Results

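The genes described here are 10 of the 23197 genes in a single-cell count table: the endocytic receptor genes *Amn*, *Cubn* and *Lrp2*, the adaptor gene *Dab2*, and the carrier genes *Ttr*, *Rbp4*, *Afp*, *Apoe*, *Apoa1* and *Apob*. They were chosen by name, and all 10 were found in the table. In the visceral layer of the yolk sac, cells take up proteins and vitamins through a pair of large receptors at the apical membrane. Cubilin (*Cubn*) has no membrane anchor of its own and is held at the surface by amnionless (*Amn*), megalin (*Lrp2*) is a member of the LDL receptor family, and the adaptor protein *Dab2* links megalin to clathrin-coated pits. The same layer makes serum proteins before the liver does, among them transthyretin (*Ttr*), which carries thyroid hormone and binds the retinol carrier *Rbp4*, alpha-fetoprotein (*Afp*), and the apolipoproteins of lipid transport.

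Mouse embryonic fibroblasts (MEFs) were treated with the C6FAE cocktail, which holds CHIR99021, the compound abbreviated 6, Forskolin, AM580 and EPZ004777, to turn them into cells like those of extraembryonic endoderm (XEN) lines. Single cells were picked by hand before treatment (d0) and on days 1, 2, 3, 4, 5, 6, 8, 12 and 20, and the groups are called d1 to d20 here. The day 6 group is named d6p in the data, a p whose meaning is not stated, and d8c and d12c are cells from colonies picked on days 8 and 12. Of 808 cells, the 670 with at least 4000 detected genes were kept.

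Kept cells numbered 72 at d0, 40 at d1, 83 at d2, 38 at d3, 77 at d4, 36 at d5, 86 at d6p, 62 at d8, 20 at d8c, 67 at d12, 51 at d12c and 38 at d20. Their median depth was 344195 UMIs (unique molecular identifiers, each of which tags 1 copied RNA) at d0, 749158 at d1, 1055206 at d2, 763742 at d3, 463474 at d4 and 751825 at d5. It was 411771 UMIs for d6p, 676178 for d8, 411485 for d8c, 768565 for d12, 326260 for d12c and 195480 for d20, the lowest. Single cells ranged from 17633 to 6004864 UMIs. Cells lost to the filter were most numerous at d12c, 45 of 96, and at d20, 34 of 72. Levels are in CPM, the UMIs of a gene per 1000000 UMIs of its cell without the ERCC spike-in RNAs, averaged over cells. Cells could not be assigned to the 10 sequenced batches, so the table is 1 sample without replicates and no test was made. Intervals at 95%, exact Poisson for UMIs and exact Clopper-Pearson for shares of cells, cover counting error only. Where no cell had a UMI, the limit given is 3 over the number of cells, and it bounds cells with a UMI at that depth, not cells that express the gene.

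Markers give the setting for these genes. The 12 fibroblast markers had a summed mean of 5353 CPM at d0, with *S100a4* the most abundant at 1392 CPM, and of 100 CPM at d20, with *Thy1* the most abundant at 36.0 CPM and *Dcn* and *Postn* without a UMI. The 25 visceral endoderm markers had a summed mean of 23.5 CPM at d0, of which 11 genes had no UMI, and of 6071 CPM at d20, led by *Cyp26a1* (2246 CPM), *Cited1* (2027 CPM) and *Sox17* (982 CPM). *Foxa1*, *Foxa3*, *Cer1*, *Lhx1*, *Otx2* and *Soat2* of that list had no UMI at d20, and *Hnf4a*, a regulator of apolipoprotein genes, had a mean of 0.427 CPM. The 15 parietal endoderm markers were detected in full at both ends, with summed means of 4226 and 4132 CPM and *Sparc* as the most abundant gene (1899 and 1276 CPM).

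Markers of other cell types that use these genes were also summed. Of 12 macrophage markers, *Cd68* alone had a UMI at d20 (9.81 CPM), and at d0 the list summed to 13.4 CPM, of which *Cd68* gave 10.4. The 8 hepatocyte markers summed to 79.8 CPM at d0 and 56.3 CPM at d20, where *Alb*, *Cps1*, *Tat*, *Pck1* and *G6pc* had no UMI and *Cyp2e1* led with 43.0 CPM. The 6 endothelial markers summed to 11.3 CPM at d0, with *Pecam1* at 0, and to 12.5 CPM at d20, with *Emcn* at 0 and *Esam* leading at both (3.87 and 10.3 CPM). Between these ends the sums were higher at some time points. The hepatocyte markers reached 182 CPM at d8c, of which *Ass1* gave 110, and *Alb* had 0.406 CPM at d12 and 12.1 CPM at d12c (3.22). The endothelial markers reached 66.2 CPM at d3, of which *Esam* gave 61.6, and 39.4 CPM at d12, of which *Kdr* gave 36.2, and the macrophage markers 29.7 CPM at d8c, of which *Cd68* gave 21.6.

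The label of yolk sac carriers held only in part. At d20 a mean of 5 CPM or more was found for 5 of the 10 genes, *Cubn*, *Lrp2*, *Dab2*, *Apoe* and *Rbp4*. The other 5, *Amn*, *Ttr*, *Afp*, *Apoa1* and *Apob*, stayed under 5 CPM at every time point, and *Afp*, *Apoa1* and *Apob* had no UMI in any d20 cell. Of all 23197 genes, 10157 had a mean of 5 CPM or more at d0 or d20, so the count of 5 of 10 is a description and does not set these genes apart.

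Among the receptors, *Lrp2* had an interrupted course. Its mean was 6.31 CPM at d0, 2.91 at d1 and 0.694 at d2, with UMIs in 37 of these 195 cells (19.0%, interval 13.7% to 25.2%). From d3 to d8c it had 1 UMI, in a d6p cell, among 319 cells (0.313%, 0.00794% to 1.73%). Median depths were 643526 UMIs from d0 to d2 and 512403 UMIs from d3 to d8c. At d12 the mean was 0.935 CPM with UMIs in 5 of 67 cells, at d12c 18.6 CPM with UMIs in 16 of 51, and at d20 34.3 CPM with UMIs in 22 of 38 (57.9%, 40.8% to 73.7%). The gene was thus detected in some fibroblasts, was at or under 1 UMI per time point through the middle of the course, and was detected again at d12 and later.

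The early *Lrp2* level rested on few cells. A single d0 cell with 322 CPM held 134 of the 310 UMIs of d0, and without it the mean of d0 was 1.87 CPM. A d12 cell with 59.3 CPM held 68 of the 72 UMIs of d12, and without it that mean was 0.0509 CPM. At d20 the quartiles were 0, 13.1 and 50.8 CPM, the highest cell reached 230 CPM, and the mean without it was 29.0 CPM. After thinning each cell to 50000 UMIs, *Lrp2* was found in 5 of 71 cells at d0, in 0 of 59 at d8, in 8 of 47 at d12c and in 14 of 36 at d20, with 1, 3, 4 and 2 cells too shallow to thin. The share was therefore highest at d20, the time point with the lowest median depth.

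*Cubn* was low for most of the course. Over the 12 time points its mean ran from 0.280 CPM at d5 to 12.6 CPM at d20, with a median of 1.25 CPM, and d20 was the single time point above 5 CPM. UMIs were found in 8 of 72 cells at d0 (11.1%, 4.92% to 20.7%), in 54 of the 514 cells of d0 to d8c (10.5%, 7.99% to 13.5%), in 12 of 67 at d12 (17.9%, 9.61% to 29.2%), in 8 of 51 at d12c (15.7%, 7.02% to 28.6%) and in 12 of 38 at d20 (31.6%, 17.5% to 48.7%). Thinned shares were 3 of 71 cells at d0, 3 of 66 at d12, 5 of 47 at d12c and 7 of 36 at d20. The d0 fibroblasts, which are not known for this receptor, give the background, at a median of 344195 UMIs against 195480 at d20. The intervals of both shares overlap, although the mean of d20 was 16.1 times that of d0. A single d0 cell held 7 of the 15 UMIs of d0, and without the top cell of each time point the means were 0.217 and 9.33 CPM. At d20 the upper quartile was 4.57 CPM and the highest cell 134 CPM. The median was 0 CPM, so most d20 cells had no *Cubn* UMI.

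*Amn*, the membrane anchor of cubilin, did not follow *Cubn* over the 12 time points (Pearson coefficient 0.07). It had no UMI in the 72 d0 cells, where 0 allows up to 4.17% of cells with a UMI, nor in the 62 cells of d8 and the 20 of d8c. Its highest means were 2.76 CPM at d5, 2.61 at d12 and 3.28 at d12c, and UMIs were found in 6 of 36, 14 of 67 (20.9%, 11.9% to 32.6%) and 6 of 51 cells. At d20 the mean was 0.596 CPM, with 9 UMIs in 2 of 38 cells (5.26%, 0.644% to 17.7%), of which 8 came from the deepest kept d20 cell (570418 UMIs). These means rest on few cells. A single d12 cell with 57.0 CPM held 81 of 167 UMIs, without which the mean was 1.79 CPM, and without the top cell those of d5 and d12c were 1.95 and 1.72 CPM. Both subunits were found together in 2 cells each at d1, d6p and d20, in 1 each at d2, d4, d5 and d12c, and in 3 at d12.

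**Figure D1:**
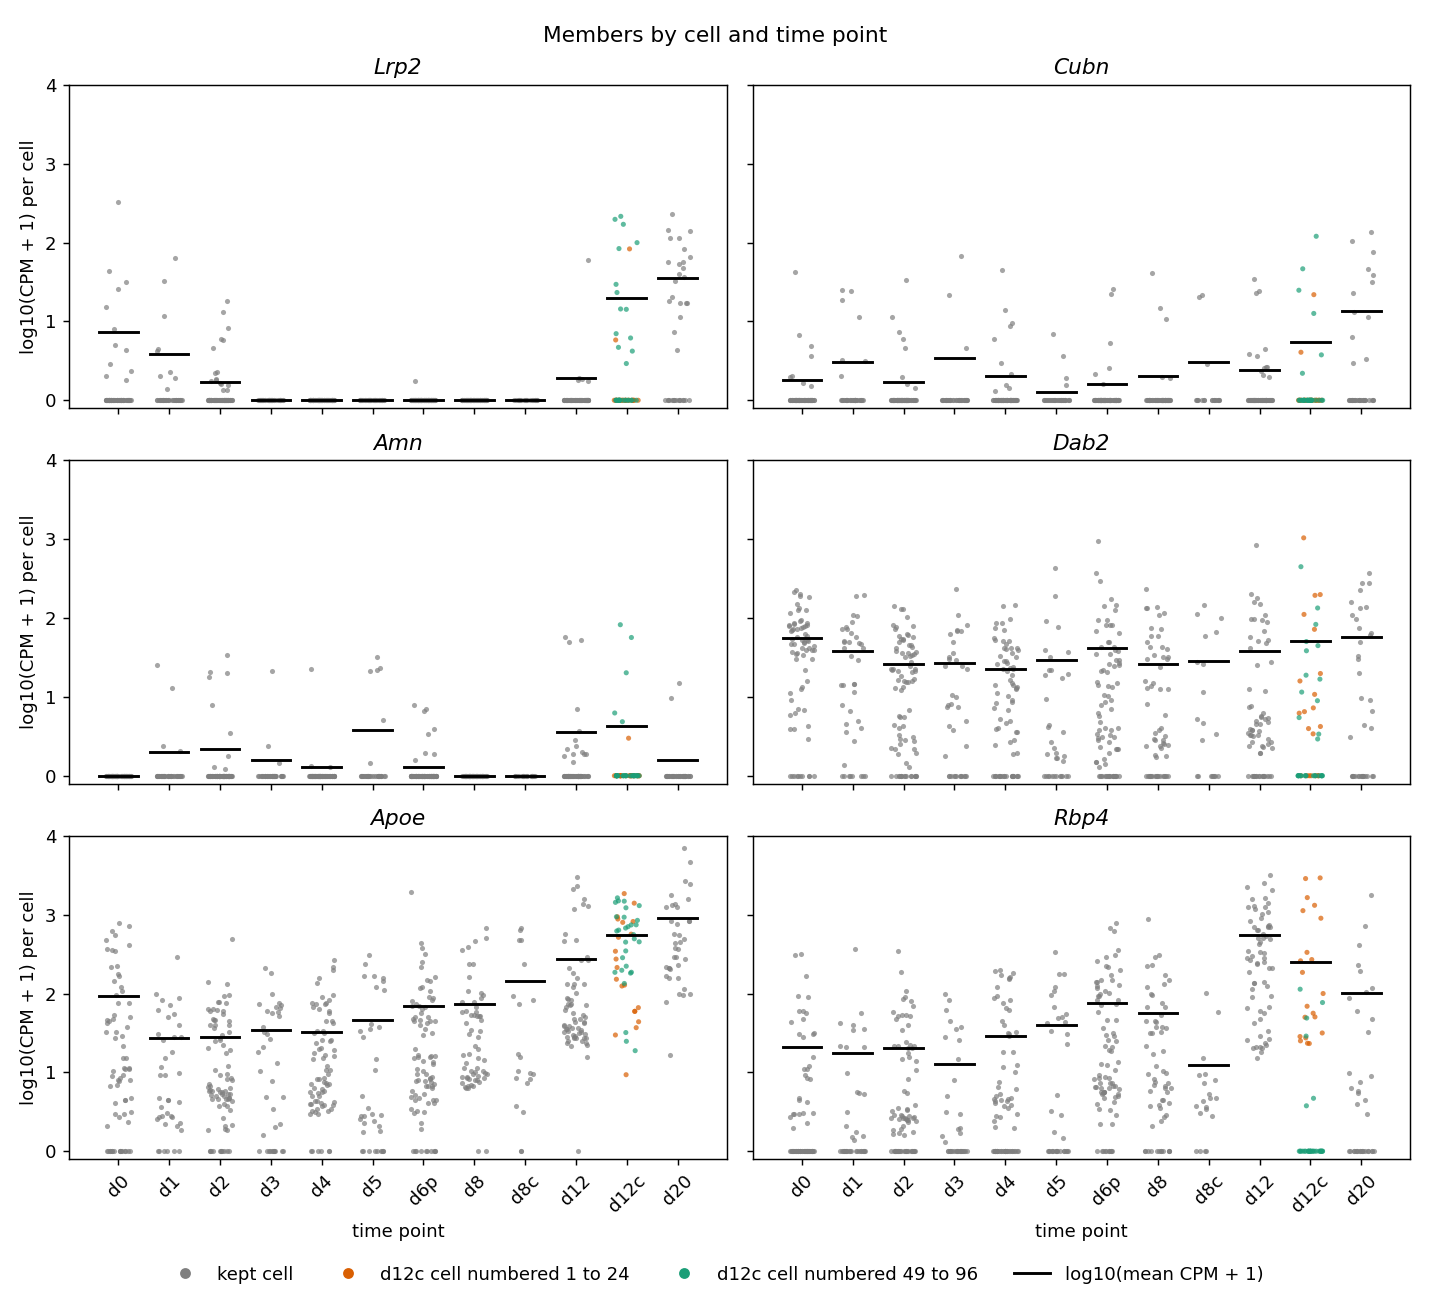
Each point is a kept cell, plotted by time point against log10(CPM + 1), and black lines mark the mean CPM on that scale for the receptors *Lrp2*, *Cubn* and *Amn*, the adaptor *Dab2* and the carriers *Apoe* and *Rbp4*. *Lrp2* is empty from d3 to d8c but for 1 cell of d6p, and at d12c the cells numbered 1 to 24 and 49 to 96 differ in mean *Rbp4*, 586 and 9.02 CPM, with overlapping cells.

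*Dab2* was expressed from the start. Its mean was 55.1 CPM at d0, lowest at d4 with 21.5 CPM, 25.5 CPM at d8 and 37.0 CPM at d12. In d12c cells the mean was 49.7 CPM and in d20 cells 56.5 CPM. The means of d0 and d20 were close, but their cells were distributed unlike each other. The median was 44.4 CPM at d0, 2.37 CPM at d8 and 4.47 CPM at d20, while the upper quartile was 79.0, 31.0 and 71.2 CPM in the same order. UMIs were found in 62 of 72 cells at d0 (86.1%, 75.9% to 93.1%) and in 22 of 38 at d20 (57.9%, 40.8% to 73.7%), and after thinning in 48 of 71 and 17 of 36. A level near that of fibroblasts was thus carried by fewer d20 cells.

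A few cells weighed on *Dab2* at several time points. At d12c 1 cell with 1040 CPM held 57.8% of the UMIs, and the mean without it was 29.9 CPM. At d12 the mean without the highest cell (840 CPM) was 24.9 CPM. No group in the table is known to lack *Dab2*, *Apoe* or *Rbp4*, since fibroblasts can express all 3, and their shares are given without such a background.

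*Apoe*, the ligand through which LDL receptor family members take up lipoproteins, had the highest means of its course at the end. The mean was 92.2 CPM at d0, lowest at d1 with 26 CPM, and 27.2, 33.3, 31.6, 44.8 and 68.0 CPM from d2 to d6p. The d8 cells had 73.6 CPM, those of d8c 142, those of d12 273, those of d12c 558 and those of d20 918. Medians were lower, with 10.1 CPM in d0 cells, 17.5 in d8, 12.1 in d8c, 46.8 in d12, 452 in d12c and 409 in d20. Unlike the means, they were lower in d8c than in d8 and in d20 than in d12c. *Apoe* was found in 56 of the 72 d0 cells (77.8%, 66.4% to 86.7%), in all 51 d12c cells and in all 38 d20 cells, and after thinning in 34 of 71, 44 of 47 and 36 of 36.

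The spread of *Apoe* among cells was as wide as its means. At d20 the quartiles were 205, 409 and 1144 CPM, and 1 cell with 7090 CPM held 20.5% of the UMIs, without which the mean was 751 CPM. At d12 the quartiles were 30.3, 46.8 and 133 CPM, and the highest cell held 3020 CPM. The d20 and d12c cells lay above the median of d12 in most cases, while the ranges of all late time points overlapped.

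*Rbp4*, the carrier of retinol in blood, had its highest mean at d12 and not at d20. The mean was 20.1 CPM at d0 and 16.4, 19.5, 11.6, 27.6, 39.0 and 74.8 CPM from d1 to d6p. The d8 cells had 55.5 CPM, those of d8c 11.5, those of d12 547, those of d12c 247 and those of d20 101. All 67 cells of d12 held *Rbp4*, each at 10 CPM or more, with quartiles of 64.9, 284 and 712 CPM, against 32 of 72 cells at d0 (44.4%, 32.7% to 56.6%) and 20 of 38 at d20 (52.6%, 35.8% to 69.0%). Thinned shares were 14 of 71 cells at d0, 61 of 66 at d12 and 13 of 36 at d20. The median at d20 was 2.46 CPM, and without its highest cell (1800 CPM) the mean of d20 was 55.2 CPM, so the d20 mean came from a minority of cells.

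The carriers named most often with yolk sac endoderm were at or near 0. *Ttr* had 13 UMIs in all 670 cells, 10 in a d4 cell and 3 in a d20 cell, and the other 37 cells of d20 had none. *Apob*, the scaffold protein of large lipoproteins, had 8 UMIs in 3 cells of d3 and d8, and was found in 0 of 38 cells at d20, which allows up to 7.89% of cells with a UMI. *Apoa1*, the main protein of high-density lipoprotein, had UMIs in 24 of 670 cells (3.58%, 2.31% to 5.28%) and a highest mean of 1.40 CPM, at d6p. There 1 cell held 84 of the 88 UMIs, and without it the mean was 0.274 CPM, under the 0.652 CPM of d1 without its own top cell. For these genes d0 gave 0 of 72 cells, which allows up to 4.17% of cells with a UMI, at a median depth of 344195 UMIs against 195480 at d20.

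*Afp*, the main serum protein of the fetus, was found in some d12 cells. Its mean at d12 was 4.69 CPM with UMIs in 9 of 67 cells (13.4%, 6.33% to 24%), against 1 of 72 cells at d0 (1.39%, 0.0352% to 7.50%), 1 of 51 at d12c and 0 of 38 at d20. UMIs were also found in 1 of 40 cells at d1, 3 of 83 at d2, 2 of 36 at d5, 1 of 86 at d6p and 1 of 20 at d8c. The means of d5 and d6p were 2.36 and 1.24 CPM, and their highest cells had 82.5 and 107 CPM. After thinning, 5 of 66 cells at d12 and 1 of 71 at d0 had a UMI. A d12 cell with 198 CPM held 140 of the 224 UMIs, and without it the mean was 1.77 CPM. That cell had 8991 CPM of fibroblast markers and 1.41 CPM of *Sox17*.

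**Figure D2:**
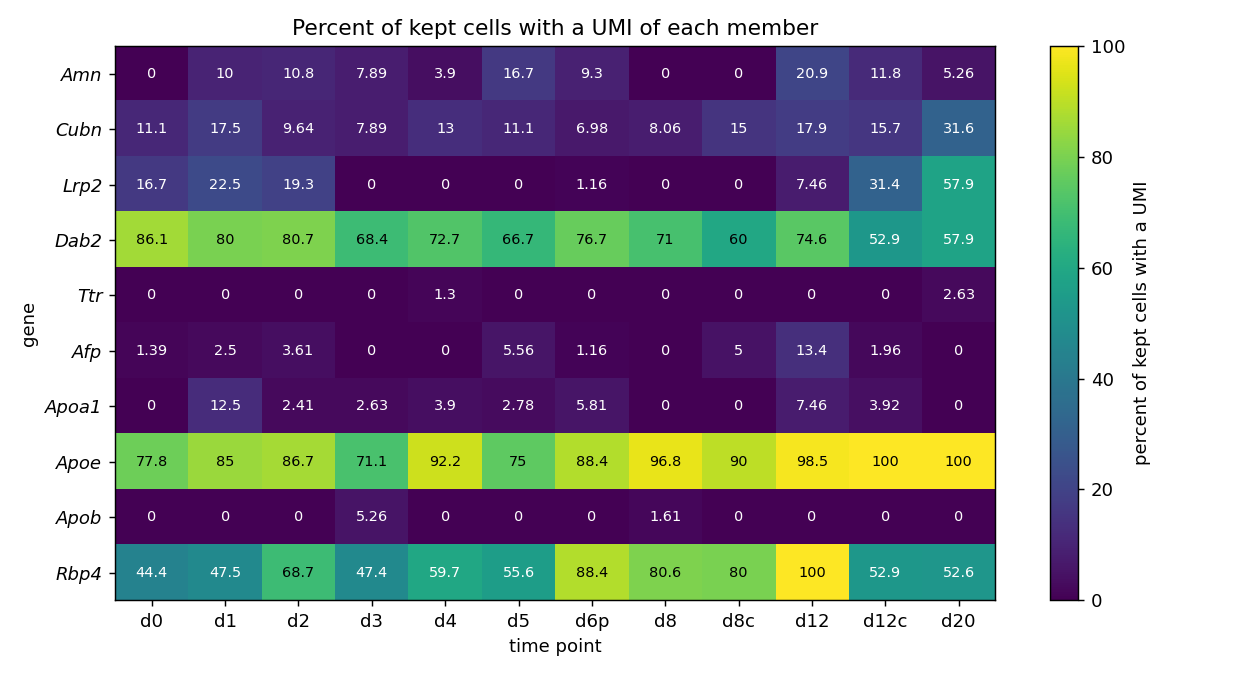
Colour and number give the percent of kept cells with at least 1 UMI, for each of the 10 genes (vertical axis) and time points (horizontal axis), at full depth. *Ttr*, *Afp*, *Apoa1* and *Apob* are at or near 0 at d20, where *Apoe* is at 100% and *Lrp2* at 57.9%.

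Levels over the 12 time points were ordered for each gene. Of the 11 neighbouring pairs in the order, 0 had means that differed by more than the larger standard deviation over cells, for each of the 10 genes. At d20, for example, this standard deviation was 52.2 CPM for *Lrp2*, 30.0 CPM for *Cubn*, 93.8 CPM for *Dab2* and 1382 CPM for *Apoe*. At d12 it was 662 CPM for *Rbp4*. Many cells have no UMI, and this spread exceeds most of the means, so the count of 0 says little about the order. It is not a replicate error.

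Time points were compared by the log2 ratio of mean CPM + 1. Genes entered with 5 CPM or more in either mean, and were called past 4-fold. From d0 to d20, 9.03% of 10157 genes were called higher and 10.1% lower. Of the 10 genes, 5 could be compared, and *Apoe* (3.30), *Cubn* (2.93), *Lrp2* (2.27) and *Rbp4* (2.27) were called higher, while *Dab2* was at 0.03. Members enter this comparison through the group where they are high, so the count of 4 is a description. The counting intervals were 3.22 to 3.38 for *Apoe*, 2.33 to 3.48 for *Cubn*, 1.94 to 2.60 for *Lrp2* and 2.06 to 2.49 for *Rbp4*.

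Of these calls, *Apoe* was made under every alternative run. *Lrp2* was at 1.87 after thinning, at 1.69 in cells numbered 1 to 48 and at 3.39 when the top cell of either time point was left out. With ERCC counts in the library size *Lrp2* was at 1.99. *Rbp4* was at 1.40 after thinning, at 1.73 without the top cells, and at 1.79 and 1.48 with at least 2000 and 6000 detected genes per cell. *Cubn* was at 2.96 after thinning and at 3.08 without the top cells, and its call was lost with the difference of mean log2(CPM + 1) (1.19), with a pseudocount of 10 (1.07), with a minimum of 20 CPM and with an 8-fold limit. The median log2 difference over all 10157 genes was 0.19. With edgeR TMM factors this median moved by -0.25 and with DESeq2 size factors by -0.15, and the share of higher among all calls was 47.3% as reported, 38.0% and 41.7%, with 4 members called under each.

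From d0, the cells of d8 and d12 were compared, and no step among d1 to d6p was. From d0 to d8, 7.03% of 9928 genes were called higher and 4.68% lower, and *Lrp2*, with 0 UMIs at d8, was the member called lower. The d0 cells held 310 UMIs, of which 1 cell gave 134, and the call was lost without the top cells (-1.52). From d0 to d12, 9.58% of 9942 genes were called higher and 5.27% lower, and *Rbp4* was called higher by 4.70 (interval 4.58 to 4.82), a 27.2-fold ratio of means. *Rbp4* ranked 106 among the genes compared. In cells numbered 1 to 48 and 49 to 96 its difference was 4.60 and 4.87. Markers moved over the same time: the summed fibroblast markers had 5353 CPM at d0, 11004 at d6p, 17411 at d8 and 13016 at d12, and 8 of 9 visceral endoderm markers compared were called higher from d0 to d12, with summed means of 23.5 and 377 CPM. Of 15 parietal endoderm markers 4 were called higher, with sums of 4226 and 8154 CPM, as was the 1 endothelial marker compared (3.37). Their part in the *Rbp4* difference was not tested.

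Colony cells of d8c were set against d8 cells not picked from colonies. Here 4.13% of 9961 genes were called higher and 5.41% lower, and *Rbp4* was called lower by -2.18 (-2.46 to -1.90). After thinning that difference was -1.56, and against d8 cells numbered 49 to 96 it was -1.21, both short of the limit. *Apoe* differed by 0.94 and *Dab2* by 0.11 in this comparison. The summed fibroblast markers had 17411 CPM at d8 and 9913 CPM at d8c (medians 16664 and 6354), and the visceral endoderm markers 56.4 and 241 CPM, and their part in the *Rbp4* difference was not tested.

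Between d12 and the colony cells of d12c, 5.28% of 10046 genes were called higher in d12c and 4.25% lower. *Lrp2* was called higher by 3.34 (3.0 to 3.66) and ranked 88, and *Apoe* (1.03), *Dab2* (0.41) and *Rbp4* (-1.15) were not called. Of 15 visceral endoderm markers compared, 10 were called higher in d12c, with summed means of 377 CPM at d12 and 3654 CPM at d12c. Of 12 fibroblast markers, 6 were called lower, with sums of 13016 and 3283 CPM. Of 15 parietal endoderm markers, 1 was called higher and 1 lower, with sums of 8154 and 4299 CPM. The part of these markers in the member differences was not tested. With TMM factors the median over all genes moved by -0.23 and with DESeq2 size factors by -0.19, and the share of higher among all calls was 55.4% as reported, 40.5% and 43.0%. Under either scaling *Afp*, with 1 UMI at d12c, was called lower as well.

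The d12c cells differed by their running number. The 21 kept cells numbered 1 to 24 had a median of 416789 UMIs, and the 30 numbered 49 to 96 a median of 276239. *Lrp2* was found in 2 of the 21 (9.52%, 1.17% to 30.4%) and in 14 of the 30 (46.7%, 28.3% to 65.7%), with means of 4.14 and 28.6 CPM. Without its top cell (82.2 CPM) the mean of the lower range was 0.241 CPM. *Rbp4* was found in all 21, with a mean of 586 CPM and quartiles of 30.6, 99.1 and 902 CPM, and in 6 of the 30, with a mean of 9.02 CPM and an upper quartile of 0. *Apoe* was found in all cells of both ranges, with means of 443 and 639 CPM. *Amn* and *Cubn* both had their higher mean in cells numbered 49 to 96. Means were 0.095 and 5.51 CPM for *Amn*, and 1.14 and 6.81 CPM for *Cubn*. Without the top cell of the higher range they were 2.90 CPM for *Amn* and 2.93 CPM for *Cubn* there. The receptor and the retinol carrier were thus high in different number ranges of d12c.

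Cell type markers moved with these ranges. The 12 fibroblast markers, all detected in both, had a summed mean of 7738 CPM in cells numbered 1 to 24 and of 164 CPM in those numbered 49 to 96, with *Dcn* the most abundant (3207 and 75.1 CPM). Of the 25 visceral endoderm markers 17 and 19 were detected, with summed means of 1160 and 5400 CPM, led by *Cyp26a1* (377 CPM) and *Cited1* (2344 CPM), and *Hnf4a*, *Foxa1*, *Cer1*, *Otx2* and *Soat2* were at 0 in both. In the same order the parietal endoderm markers summed to 5764 and 3274 CPM, the hepatocyte markers to 186 and 48.1 CPM (*Ass1* 136 and 29.0, *Alb* without a UMI in the higher range) and the endothelial markers to 29.3 and 18.8 CPM. The macrophage markers summed to 50 CPM, led by *Csf1r* (32.6 CPM), and 9.15 CPM, where *Csf1r* had no UMI and *Cd68* led (8.33 CPM). What the number ranges stand for is not stated, and range and cell type cannot be told apart here. The *Lrp2* difference to d12 was 1.14 when both time points were limited to cells numbered 1 to 48, of which d12c kept none above 24, and 4.73 when limited to 49 to 96. That of *Rbp4* was 0.12 and -5.81. The *Lrp2* means behind the 1.14 rest largely on 1 cell each, with 82.2 CPM at d12c and 59.3 CPM at d12.

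From d12c to d20, 3.04% of 10126 genes were called higher and 8.33% lower, and 0 of the 5 members compared were called. *Cubn* differed by 1.31 (0.85 to 1.77), *Lrp2* by 0.85, *Apoe* by 0.72, *Dab2* by 0.18 and *Rbp4* by -1.28 (-1.43 to -1.13). With at least 2000 detected genes per cell, *Lrp2* was lower at d20 than at d12c. The direction of *Rbp4* depended on the d12c cells used, since it was -2.54 among cells numbered 1 to 48 and 3.39 among those numbered 49 to 96, which at d20 were 8 cells. Of 12 fibroblast markers, 9 were called lower at d20, with a median of -4.79 and summed means of 3283 CPM at d12c and 100 CPM at d20, and the visceral endoderm markers summed to 3654 and 6071 CPM. The part of these markers in the member differences was not tested. TMM factors moved the median of all genes by -0.19 and DESeq2 size factors by -0.12. Between d0 and d12 these shifts were 0.18 and 0.16, and in the other comparisons under 0.1.

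Coefficients between members were computed within d12, d12c and d20. Among the 38 cells of d20, the largest Spearman coefficient between members with UMIs in at least 10 cells was 0.37, for *Cubn* and *Rbp4*, and *Lrp2* had 0.06 with *Cubn*, 0.09 with *Dab2* and -0.18 with *Apoe*. *Lrp2* and *Cubn* were found together in 6 of these cells, *Lrp2* and *Dab2* in 13, and 10 cells had neither *Lrp2* nor *Cubn*. Among the 51 cells of d12c, *Rbp4* had a coefficient of 0.72 with the summed fibroblast markers and -0.47 with *Sox17*, and *Lrp2* had -0.47 with the fibroblast markers. Within the 21 cells numbered 1 to 24 *Rbp4* had 0.52 with the fibroblast markers and -0.19 with *Sox17*, and within the 30 numbered 49 to 96 *Lrp2* had -0.29 with the fibroblast markers. At d12, over 67 cells, *Apoe* had 0.44 with *Sox17* and -0.40 with the fibroblast markers, and *Rbp4* had -0.11 and 0.29. Which of these cells shared a library is not known here, their depths differ, and the coefficients are descriptions.

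Genes with the most similar course were sought by the Pearson coefficient of log2(mean CPM + 1) over the 12 time points, among 10382 genes that reached 10 CPM at some time point. *Lrp2* was closest to *Atp1b1*, a subunit of the sodium pump (0.975), *Gca* (0.960) and *Tmem192* (0.953), and *Cubn* to *Ogfod3* (0.939), *Arl6ip6* (0.930) and *B230208H11Rik* (0.922). *Dab2* was closest to *Jade1* (0.922), *Ildr2* (0.919) and *Krtdap* (0.870). *Apoe* was closest to *Ramp1* (0.948), the epithelial adhesion gene *Epcam* (0.938) and *Dpp4* (0.937), and *Rbp4* to *Uaca* (0.922), *H2-D1* (0.920) and *Ccrl2* (0.911). For the 5 genes under 5 CPM the closest courses rest on few UMIs, 530 for *Amn*, 375 for *Afp*, 312 for *Apoa1*, 13 for *Ttr* and 8 for *Apob*. They were *Sipa1l2*, *Mpdu1* and *Ptch1* for *Amn*, *Gc*, *Tff2* and *2210409E12Rik* for *Ttr*, *Pvalb*, *Map1s* and *Guca1b* for *Afp*, *Cdk17*, *Plekha3* and *Slc41a2* for *Apoa1*, and *Far2*, *Naprt* and *Rhod* for *Apob*. Between members, *Lrp2* had 0.84 with *Dab2*, 0.76 with *Cubn* and 0.72 with *Apoe*.

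Genes that work with these receptors and carriers were compared from d0 to d20 as lists, beside a median of 0.19 over all genes compared, of which 9.03% were called higher and 10.1% lower. Of 22 endocytic adaptors and partners, 20 could be compared, with a median of 0.23, and 1 was called higher: *Myo6*, a myosin that moves endocytic vesicles, at 3.87 CPM at d0 and 34.6 CPM at d20 (2.87). Of 24 endosome and lysosome genes, all were compared, with a median of 0.45, and 0 were called. Genes of both lists were thus detected at both ends, and *Cltc*, the clathrin heavy chain, had 77.9 and 78.5 CPM. Differences short of the limit went both ways. *Cltb* was at -1.66, *Eea1* at -1.61 and *Ap2m1* at -1.52 (582 and 202 CPM), while *Ctsc* was at 1.88 and *Lgmn* at 1.74.

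Other uptake receptors changed in both directions. Of 22 listed, 16 were compared, with a median of 0.22 (0.08 over all 22), 4 were called higher and 3 lower. *Folr1*, a folate receptor, had 3.56 CPM at d0 and 66.1 CPM at d20 (3.88), the lipoprotein receptor *Vldlr* 8.08 and 53.4 CPM (2.58), and *Stra6*, the cell surface receptor for *Rbp4*, 9.59 and 62.4 CPM (2.58). The *Stra6* level was not particular to d20, since its mean was 61.2 CPM at d1, 134 at d2, 121 at d5 and 59.8 at d12. The neonatal Fc receptor *Fcgrt* had 21.4 CPM and no UMI (-4.48), *Lrp1*, a large receptor of the family of *Lrp2*, 85.0 and 6.39 CPM (-3.54), and *Lrp12* 15.6 and 1.65 CPM (-2.65). The fold of *Fcgrt* rests on the pseudocount, since d20 had no UMI.

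Of 38 other secreted carriers and lipoprotein assembly genes, 24 had no UMI at d20 and 10 could be compared, of which 5 were called higher and 1 lower. The median was 1.96 over these 10 and 0 over all 38. *Clu*, clusterin or apolipoprotein J, had 27.0 CPM at d0 and 718 CPM at d20 (4.68). *Gc*, the vitamin D carrier, had 0 and 23.7 CPM, and *Apom* 0 and 13.4 CPM, where log2 differences of 4.63 and 3.84 rest on the pseudocount. *Apod* had 13.9 and 0.647 CPM (-3.18). Albumin (*Alb*), *Apoa2* and *Apoa4* had no UMI at d20.

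Marker lists were compared in the same way. From d0 to d20, 14 of 15 visceral endoderm markers compared were called higher, with *Cyp26a1* (11.05), *Sox17* (9.79) and *Cited1* (7.98) leading, and 11 of 12 fibroblast markers lower, with *S100a4* (-8.26), *Col1a1* (-8.06) and *Dcn* (-8.92), whose value rests on the pseudocount because d20 had no *Dcn* UMI. Of 15 parietal endoderm markers, 5 were called higher, led by *Lama1* (5.65), *Pth1r* (4.41) and *Col4a2* (2.57), and 4 lower, led by *Nid1* (-3.71), *Vim* (-2.86) and *Plat* (-2.85). Of 8 hepatocyte markers 2 were compared and *Ass1* was called lower (-2.56), and of the macrophage and endothelial markers 1 each was compared and 0 were called. The part of these markers in the levels of *Lrp2*, *Cubn*, *Apoe* and *Rbp4* was not tested.

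In the GENCODE M1 annotation of NCBIM37 (mm9, the build of the count table), *Lrp2* lies on chromosome 2 from 69262397 to 69424122 and *Cubn* on chromosome 2 from 13197965 to 13413551, both on the minus strand. *Amn* lies on chromosome 12 from 112509322 to 112514637, *Apoe* on chromosome 7 from 20281458 to 20284515 and *Rbp4* on chromosome 19 from 38191110 to 38199811. *Dab2* lies on chromosome 15 from 6249788 to 6390712, where a shorter annotated gene of the same name overlaps it from 6279556 to 6287206, and how the counts of both were joined is not stated. All are protein-coding.

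Promoter sequences from RefSeq (GRCm38.p6) were held for 9 of the 10 genes in 13 windows. The 250 bases before each gene start were searched on both strands for motifs of the TATA box (TATAAA), the GATA factors (AGATAA), forkhead factors (TGTTTAC), part of the HNF1 site (GTTAAT), SOX factors (AACAAT) and HNF4 (CAAAGTC), which stand in 12.4%, 9.99%, 3.17%, 6.43%, 9.42% and 3.84% of all 32851 windows. The windows of *Cubn*, *Lrp2*, *Amn* and *Apoa1* held none of these motifs, and a *Rbp4* window held TATAAA, starting 28 bases before the gene start. The other *Rbp4* window held the forkhead motif on the minus strand at -241. The TATA box motif was also found for *Afp* (-7), *Apob* (-60) and *Apoe* (-96 and, on the minus strand, -100), and the HNF1 motif for *Dab2* (-65), *Afp* (-105) and, on the minus strand, *Apoe* (-172). The receptor windows are printed because both genes were called higher at d20, and the *Rbp4* window, with TATAAA in capitals, because that gene was highest at d12. They lie at chr2:69586030-69586279 (*Lrp2*), chr2:13491877-13492126 (*Cubn*) and chr19:38124812-38125061 (*Rbp4*) of GRCm38.p6, all on the minus strand, and are written from 5′ to 3′. Their shares of G and C were 66.4%, 39.6% and 70.8%. A match or its absence describes these letters alone.
Lrp2: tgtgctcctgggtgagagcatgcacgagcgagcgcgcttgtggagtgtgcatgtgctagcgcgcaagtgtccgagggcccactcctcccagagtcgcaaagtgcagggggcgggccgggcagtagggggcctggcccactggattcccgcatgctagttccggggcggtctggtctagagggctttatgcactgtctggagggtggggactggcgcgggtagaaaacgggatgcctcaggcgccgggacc
Cubn: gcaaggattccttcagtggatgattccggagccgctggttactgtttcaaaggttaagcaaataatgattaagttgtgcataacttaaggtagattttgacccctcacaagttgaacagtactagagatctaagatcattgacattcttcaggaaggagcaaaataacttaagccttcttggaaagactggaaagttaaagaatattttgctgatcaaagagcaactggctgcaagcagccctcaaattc
Rbp4: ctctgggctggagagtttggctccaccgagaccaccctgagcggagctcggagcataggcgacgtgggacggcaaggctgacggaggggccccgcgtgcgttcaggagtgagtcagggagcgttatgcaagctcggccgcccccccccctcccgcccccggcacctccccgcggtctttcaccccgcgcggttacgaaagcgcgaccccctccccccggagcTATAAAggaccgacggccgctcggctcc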

How the data were processed

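Single cells of the C6FAE course were measured by RNA sequencing. Per the labels, the deposited values are whole-number counts of UMIs per gene and cell. The authors made them from alignments of trimmed reads to mm9 transcripts, with each UMI counted once. The aligner and how doublets were handled are not given in the sources used here, and no doublet caller was run on these hand-picked cells. Of the table, 92 ERCC entries stayed out of library sizes (5.43% of counts in kept cells) and 4 entries with repeated names were dropped. Each of the 5 counts from 100000 upward is a multiple of 1000, so large counts had been rounded.

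Kept cells had at least 4000 detected genes. Thinning drew 50000 UMIs per cell without replacement, and 23 kept cells were too shallow. Differences are log2((mean CPM + 1)/(mean CPM + 1)), called past 2 in size, and their counting intervals combine the Poisson limits of both UMI sums. Summed marker levels are sums of CPM per cell, averaged over cells. The genes and lists were chosen with earlier results of these data known. Named genes are the 10 genes, the 3 genes closest in course to each, up to 3 largest rises and falls of each list from d0 to d20 past the limit, and defining genes of the marker lists. *Cltc*, *Cltb*, *Eea1*, *Ap2m1*, *Ctsc*, *Lgmn*, *Esam*, *Kdr*, *Cd68*, *Cyp2e1* and the genes listed as lacking UMIs were named after their values were seen.

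The settings varied were the cell filter (none, or 2000 or 6000 detected genes), averaging (UMI sums, mean log2(CPM + 1) or means without the highest cell), ERCC in the library size, TMM and DESeq2 scaling, the pseudocount (0.1 or 10), the minimum CPM (none or 20), the fold limit (2-fold or 8-fold), thinning, the range of running numbers (1 to 48 or 49 to 96) and the kind of correlation. Software was Python 3.11.15, pandas 2.3.3, numpy 2.4.6, scipy 1.17.1 and matplotlib 3.10.9, and for scaling factors R 4.3.3, DESeq2 1.42.0 and edgeR 4.0.16. The rule for calling genes was tried on simulated data, with changes far past 4-fold in genes at higher d0 levels than *Cubn* and *Lrp2*. That trial does not bear on genes as low as these or on differences near the limit.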

Additional observations from a re-analysis of the deposited data

How the results depend on the processing

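No paired analysis was possible because the batch of each cell is not known here. Of 216 counts of members called under an alternative, 161 were within 1.5 times the reported count and 55 were not. A reported count of 0 that stayed at 0 is among the 161, and many reported counts were 0, so that share overstates how stable the calls were. Of 350 log2 differences of compared members under alternatives, 150 lay within the counting interval and 200 past it. Calls lie past 4-fold, far from a change of sign, and 0 of the log2 differences of members called as reported changed sign. Some of those not called did, among them *Rbp4* (3.39 in cells numbered 49 to 96) and *Lrp2* (-0.46 with at least 2000 genes) in d20 against d12c, and *Dab2* in d20 against d0 (-0.22 with TMM). Unless a change follows from the alternative's own limit, minimum or pseudocount, the cause was not tested.

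Alternatives also moved the calls over all genes. For d20 against d0, 917 of 10157 genes were called higher as reported, 1071 with all cells, 865 with UMI sums, 981 with thinned cells, 410 with mean log2(CPM + 1), 215 with a pseudocount of 10, 383 with an 8-fold limit, 2353 with a 2-fold limit and 1427 of 10047 in cells numbered 49 to 96. Member counts are to be read beside such shifts.

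For d20 against d0 the count of members called higher was 4 as reported. It was 2 with all cells, with UMI sums and with thinned cells (*Cubn* and *Apoe*), 2 with mean log2(CPM + 1) (*Lrp2* and *Apoe*), and 1 with a pseudocount of 10 or an 8-fold limit (*Apoe*). It was 3 with at least 2000 or 6000 genes or without the highest cells (*Rbp4* lost), with ERCC in the library size or cells numbered 1 to 48 (*Lrp2* lost) and with a minimum of 20 CPM (*Cubn* lost). For d12c against d12 the count called higher went from 1 (*Lrp2*) to 0 in cells numbered 1 to 48, with mean log2(CPM + 1), a pseudocount of 10 or a minimum of 20 CPM, and to 2 with a 2-fold limit. Called lower was 0, and 1 with at least 6000 genes, TMM, DESeq2 size factors, cells numbered 1 to 48 or no minimum (*Afp*), and with cells numbered 49 to 96, mean log2(CPM + 1) or a 2-fold limit (*Rbp4*).

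For d8 against d0 the member called lower (1, *Lrp2*) became 0 with at least 6000 genes, without the highest cells, in cells numbered 49 to 96, with mean log2(CPM + 1), a pseudocount of 10, a minimum of 20 CPM or an 8-fold limit, and 2 with a 2-fold limit, which also gave 1 called higher (*Rbp4*) in place of 0. For d12 against d0 the count called higher went from 1 (*Rbp4*) to 2 with at least 6000 genes, TMM, DESeq2 size factors, cells numbered 1 to 48 or no minimum (adding *Afp*), and with mean log2(CPM + 1) or a 2-fold limit (adding *Apoe*). Called lower went from 0 to 1 (*Lrp2*) in cells numbered 1 to 48, with a pseudocount of 0.1 or a 2-fold limit.

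For d20 against d12c the count called higher went from 0 to 1 with all cells or a 2-fold limit (*Cubn*), to 2 among cells numbered 1 to 48 (*Cubn* and *Lrp2*) and to 1 among cells numbered 49 to 96 (*Rbp4*). Called lower went from 0 to 1 (*Rbp4*) with at least 6000 genes, UMI sums, thinned cells, cells numbered 1 to 48 or a 2-fold limit. For d8c against d8 the member called lower (1, *Rbp4*) became 0 with all cells, at least 2000 genes, UMI sums, thinned cells, d8 cells numbered 49 to 96, mean log2(CPM + 1), a pseudocount of 10 or an 8-fold limit.

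Of the 120 means, 40 were at 5 CPM or more as reported, a count not set against that of all genes. Within d20, 1 pair of members had a Spearman coefficient past 0.3 in size, and within d12c 0 pairs, and Pearson coefficients of log2(CPM + 1) gave the same numbers. Within d12 it was 0 pairs by Spearman and 2 by Pearson, *Apoe* with *Cubn* (0.38) and with *Dab2* (0.38). Depth limits the genes near 0: at d20 the floor of 3 UMIs is 0.341 CPM over all kept cells.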

Other observations

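A few single cells had the highest level of more than 1 of these genes. The d12 cell with the highest *Lrp2* (59.3 CPM) was also the d12 cell with the highest *Apoe* (3020 CPM). It had 1582 CPM of *Sox17* and 813 CPM of fibroblast markers, against means of 70.8 and 13016 CPM over d12. The d0 cell with the highest *Lrp2* (322 CPM) was also the d0 cell with the highest *Dab2* (228 CPM), with 3568 CPM of fibroblast markers and no *Sox17* UMI. At d20 the cells with the highest *Lrp2* (230 CPM) and the highest *Dab2* (376 CPM) were again 1 cell, of 82527 UMIs. These cells were picked for their high values, and no comparison was made.

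*Ctsb*, a lysosomal protease of the endosome and lysosome list, had a course unlike the receptors. Its mean was 403 CPM at d0, 5198 CPM at d6p, 4612 CPM at d12, 2663 CPM at d12c and 822 CPM at d20. It was picked after its values were seen.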
